A study of Mus musculus with 12 samples.

Results

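Cilium and transition zone genes were examined in the DNA of whole mouse retina at postnatal day 21 (P21), in control (Cre-) animals and in animals without the TET enzymes (Tet tcKO). The members are 42 genes named for their roles, of 21938 protein-coding genes in the GENCODE M21 annotation of the mm10 genome (Tctn2 is annotated as a processed transcript and is not among the 21938). A member's locus was its gene with 5 kb on each side, and a region belonged to a member when it overlapped that locus. Whole genome bisulfite sequencing (WGBS), which reads 5-methylcytosine (5mC) and 5-hydroxymethylcytosine (5hmC) together, and bACE-seq, which reads 5hmC, were each run on 3 samples per genotype (12 libraries), the same DNA serving both assays, with the retinas of a pair of animals pooled in each sample. In Tet tcKO animals the Chx10-Cre-GFP transgene, active in retinal progenitors and known to be mosaic, deleted floxed Tet1, Tet2 and Tet3, and animals were bred to carry it from both parents. The Cre- animals came from breeders without Cre, carry the label WT, and share the strain label C57 BL/6J with the mutants.

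The deposited lists hold differentially methylated regions with 1 mean per genotype and no value per library. All levels below are therefore the authors' group means, with no error, no n-based interval and an unknown depth at each region. No test between genotypes was made from them. A WGBS gain is a listed region with a higher mean in Tet tcKO, and a 5hmC loss is one with a lower bACE-seq mean in Tet tcKO. In WGBS, 191164 listed regions were gains and 2672 were losses. In bACE-seq, 592697 were losses and 209 were gains. Outside listed regions no level is given, so the absence of a region says only that none was called. Whole retina mixes cell types, and a change in the number of cells of a type cannot be told apart from a change in the DNA of each cell. The lists hold no expression, so the tissue label could not be checked against marker genes, and the deleted Tet exons cannot be seen in them.

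The photoreceptor outer segment is a modified primary cilium, joined to the cell body by a narrow connecting cilium that corresponds to the transition zone of other cilia. Intraflagellar transport (IFT) trains carry cargo along it, the BBSome sorts membrane proteins that enter and leave, and the MKS and NPHP modules form the gate at its base. TET enzymes oxidise 5mC to 5hmC and further products on the way to unmodified cytosine, and 5hmC is abundant in neurons. Inherited defects in many of these genes cause retinal degeneration, including Leber congenital amaurosis and Bardet-Biedl syndrome.

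Start site sequences differed among members in CpG content and in whether a gain covered them, so 6 are shown, 3 from members with the largest share of the 2 kb on either side of the start inside gains and 3 from members with no gain there, taken by the most CpGs in the 300 bases of a RefSeq promoter window. How these 6 differ in gains and CpGs follows from that choice. Capitals mark CpGs. The sequences run 5′ to 3′ along the gene, come from the RefSeq promoter set of GRCm38 (the same assembly as mm10), and leave out annotated exons. For Rpgrip1, whose RefSeq start lies 199 bp inside the GENCODE gene, the 250 bases before the GENCODE start were read from the genome. They are Rpgrip1 chr14:52110454-52110703 (plus strand), Tulp1 chr17:28365223-28365466 (minus), Ift57 chr16:49699044-49699232 (plus), Ift140 chr17:25015836-25016084 (plus), Iqcb1 chr16:36828262-36828399 (plus) and, for a second RefSeq start 475 bp into the gene, Tmem216 chr19:10555764-10556013 (minus).

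Rpgrip1: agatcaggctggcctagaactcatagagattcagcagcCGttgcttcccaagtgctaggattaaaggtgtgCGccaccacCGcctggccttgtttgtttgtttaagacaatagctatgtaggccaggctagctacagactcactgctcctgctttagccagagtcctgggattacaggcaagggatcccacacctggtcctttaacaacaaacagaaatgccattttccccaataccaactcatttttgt
Tulp1: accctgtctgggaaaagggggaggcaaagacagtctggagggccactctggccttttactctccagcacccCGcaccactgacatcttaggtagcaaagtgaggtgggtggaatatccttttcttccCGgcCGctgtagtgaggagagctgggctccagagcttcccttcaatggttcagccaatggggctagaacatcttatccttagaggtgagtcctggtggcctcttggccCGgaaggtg
Ift57: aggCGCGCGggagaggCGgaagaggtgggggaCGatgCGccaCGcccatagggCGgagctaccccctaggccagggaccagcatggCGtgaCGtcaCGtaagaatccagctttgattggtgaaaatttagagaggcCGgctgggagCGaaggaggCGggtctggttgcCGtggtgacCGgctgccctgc
Ift140: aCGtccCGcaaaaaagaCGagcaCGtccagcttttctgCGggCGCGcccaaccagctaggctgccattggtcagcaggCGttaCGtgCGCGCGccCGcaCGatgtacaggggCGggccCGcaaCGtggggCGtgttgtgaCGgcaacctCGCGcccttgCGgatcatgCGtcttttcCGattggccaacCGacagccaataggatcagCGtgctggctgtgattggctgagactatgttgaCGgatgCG
Iqcb1: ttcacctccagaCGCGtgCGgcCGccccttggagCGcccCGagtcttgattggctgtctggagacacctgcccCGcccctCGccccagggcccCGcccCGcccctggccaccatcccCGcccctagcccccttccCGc
Tmem216: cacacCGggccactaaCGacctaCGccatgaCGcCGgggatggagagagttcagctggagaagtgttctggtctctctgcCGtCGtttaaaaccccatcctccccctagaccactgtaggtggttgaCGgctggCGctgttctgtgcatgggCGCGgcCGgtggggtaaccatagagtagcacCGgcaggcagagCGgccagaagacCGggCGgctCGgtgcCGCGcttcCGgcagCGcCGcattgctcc

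The Rpgrip1 stretch held 3 CpGs in 250 bases and the Tulp1 stretch 4 in 244, and both lay wholly inside a WGBS gain. The Ift57 stretch held 16 CpGs in 189 bases and lay 138 bp from the nearest gain. The Ift140 stretch held 28 CpGs in 249 bases with the nearest gain 8418 bp away, the Iqcb1 stretch 12 in 138 with the nearest gain 8249 bp away, and the Tmem216 stretch 22 in 250 with the nearest gain 3244 bp away. No 5hmC loss overlapped any of the 6 stretches. The nearest ones were 131 bp away at Tulp1 and 161 bp away at Rpgrip1, and the farthest was 2785 bp away at Iqcb1. Across all 42 members the number of CpGs within 2 kb of the start and the share of that window in gains had a Spearman rho of 0.075, against 0.402 across protein-coding genes.

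RefSeq promoter windows (250 bases before to 50 after a start) were found for 38 of the 42 members, with 44 starts in all, and not for Ift80, Ift81, Ift122 and Tmem67. They held a median of 21.0 CpGs, against 14.0 in 20150 windows of protein-coding genes. RFX factors are regulators of ciliary genes, and the core GTTGCC of their motif, searched on both strands, stood in 19 of the 44 windows (43.2%), against 26.0% of 50 windows of other cilium genes, 12.4% of the windows of protein-coding genes and 12.5% of all 32851 windows. Among windows with at least 10 CpGs the shares were 46.2% of 39 and 12.8% of 11772. The core TAATCC of the photoreceptor factor CRX, also on both strands, stood in 2 windows (4.55%), at Bbs1 and Rpgrip1, against 6.44% of the windows of protein-coding genes. The Rpgrip1 stretch printed above, which lies mostly before its RefSeq window, held this core at 2 places. Both motifs are short matches of letters, searched without marking repeats, and show no binding.

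All 42 loci held at least 1 WGBS gain and at least 1 5hmC loss. At 32 loci a gain had at least 10 CpGs, and without the flanks 41 members held a gain. The share of protein-coding genes under these limits was not worked out. Of the protein-coding genes, 76.8% held a gain and 88.3% a 5hmC loss, on shorter loci (median 27425 bp, against 44680 bp for the members). The members carried 347 gains and 1061 5hmC losses, from 1 gain at B9d1 and Spata7 to 48 at Bbs9, whose locus of 422566 bp is the longest. A WGBS loss was listed at 2 members, Ift140 and Tctn2 (4.76% of 42, background 4.90%), and a 5hmC gain at none (background 0.401%).

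The share of locus bases inside gains ran from 0.848% at Spata7 to 29.1% at Lca5, with a median of 4.90% against 3.36% for protein-coding genes. Inside 5hmC losses it ran from 14.0% at Ift74 to 77.1% at Tulp1, with a median of 38.1% against 27.7%. A set of 11 members (26.2%) had at least 10% of the locus in gains, against 17.0% of protein-coding genes. In descending order these were Lca5, Tulp1, Nphp4, Arl3, Rpgrip1, Ift122, Arl6, Ift20, Bbs5, Ift43 and B9d2. The plot of shares by role shows that the highest values were spread over several roles.

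**Figure D1:**
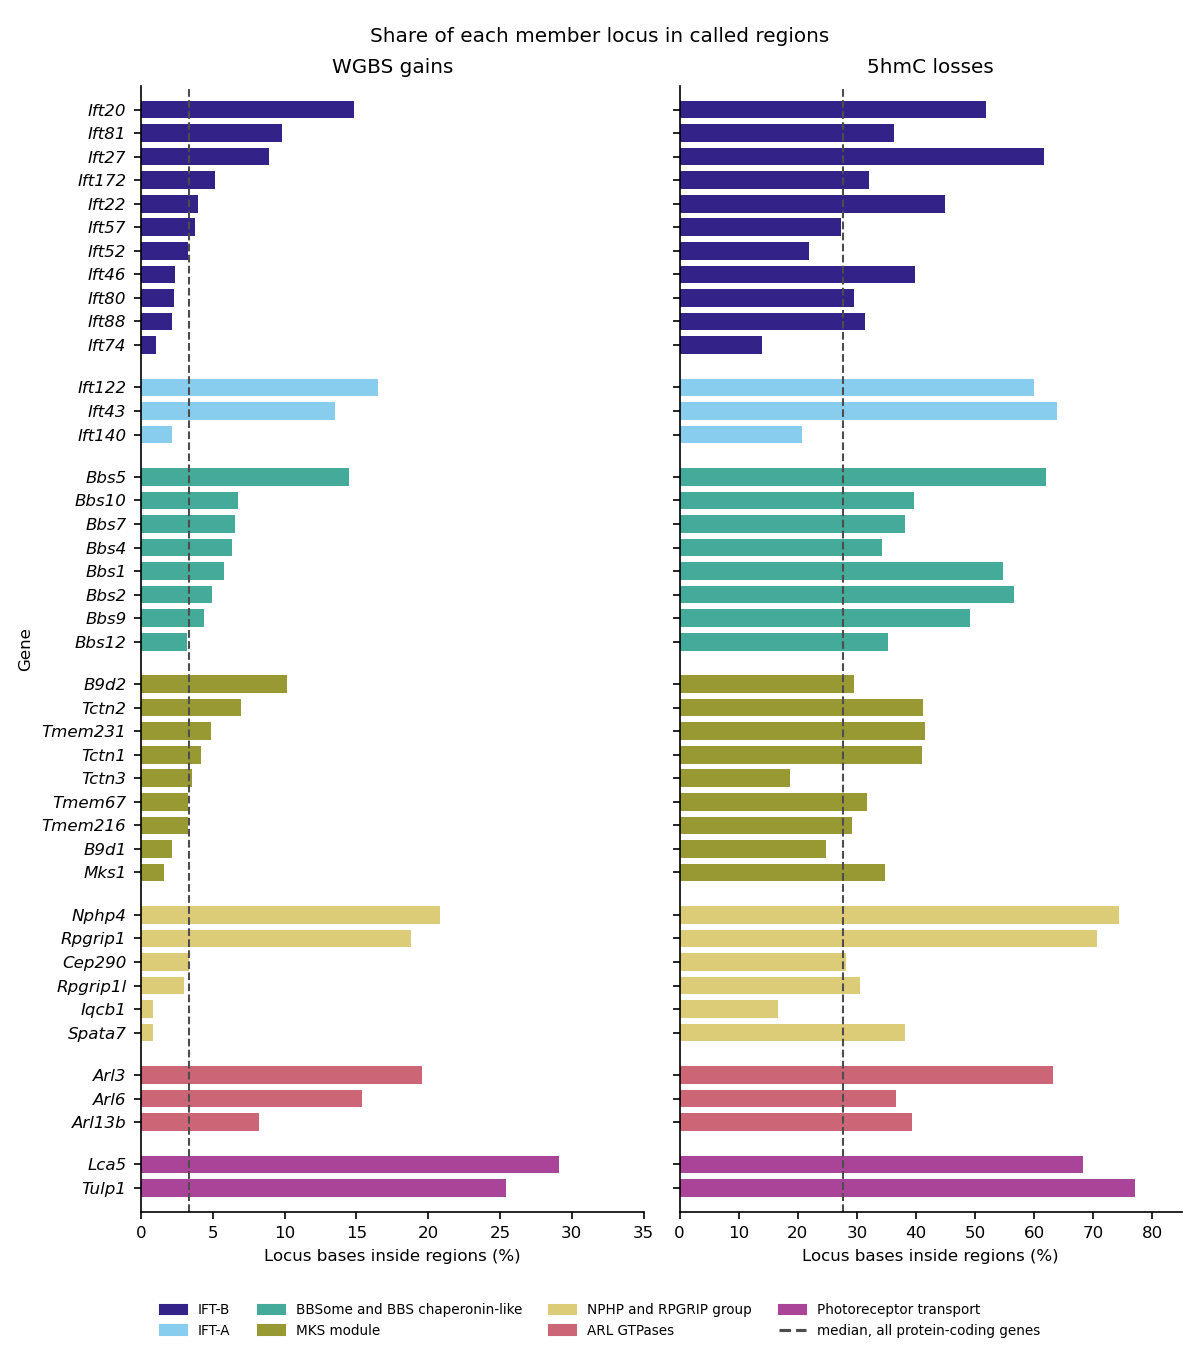
Share of bases of each of the 42 loci that lay inside WGBS gains (left, percent) and 5hmC losses (right, percent), 1 bar per gene, coloured by role, with the median of all protein-coding genes as a dashed line (3.36% and 27.7%). Lca5 at 29.1% and Tulp1 at 25.4% stood at the top on the left, and Tulp1 at 77.1% on the right. The bars rest on authors' group calls and carry no error.

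In the gains of the 42 loci, weighted by CpGs, the WGBS level went from 56.2% in Cre- to 75.1% in Tet tcKO, a difference of 18.9 percentage points. All gains of the list together stood at 56.7% and 74.1%. A median gain at these loci covered 401 bp and 8 CpGs and differed by 15.4 points, with 8.00 and 28.7 points at the low and high deciles. The change was at least 20 points in 105 of 347 gains, at least 30 in 34 and at least 40 in 10. The control level lay under 30% in 29 gains and at 75% or more in 100, and most gains started between these levels.

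In 5hmC losses of the same loci, 5hmC went from 18.3% in Cre- to 4.38% in Tet tcKO, so 23.9% of the 5hmC signal was kept. All 5hmC losses of the list stood at 16.1% and 3.86%. Cytosines that escape conversion are read as 5hmC in both genotypes and were not subtracted here, and taking off the same amount from both would lower the kept shares. Per member the kept share ran from 17.7% at Iqcb1 to 28.8% at Tctn1, a narrow range beside that of the control level, 10.4% at Mks1 to 28.9% at Lca5. Gains and 5hmC losses overlapped in 134801 of the 184016 bases in gains (73.3%). Per member the median overlap was 70.2%, and 5hmC losses covered a median of 38.1% of all locus bases. At the loci with most gain bases, Nphp4, Bbs9 and Lca5, the overlap was 94.1%, 88.3% and 69.3%. There 5hmC losses covered 74.4%, 49.1% and 68.2% of the locus. Whether the overlap exceeds that coverage was not tested. At single members this overlap ran from none at B9d1 to all gain bases at Ift20, Ift46, Ift74, Bbs10 and Spata7.

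**Figure D2:**
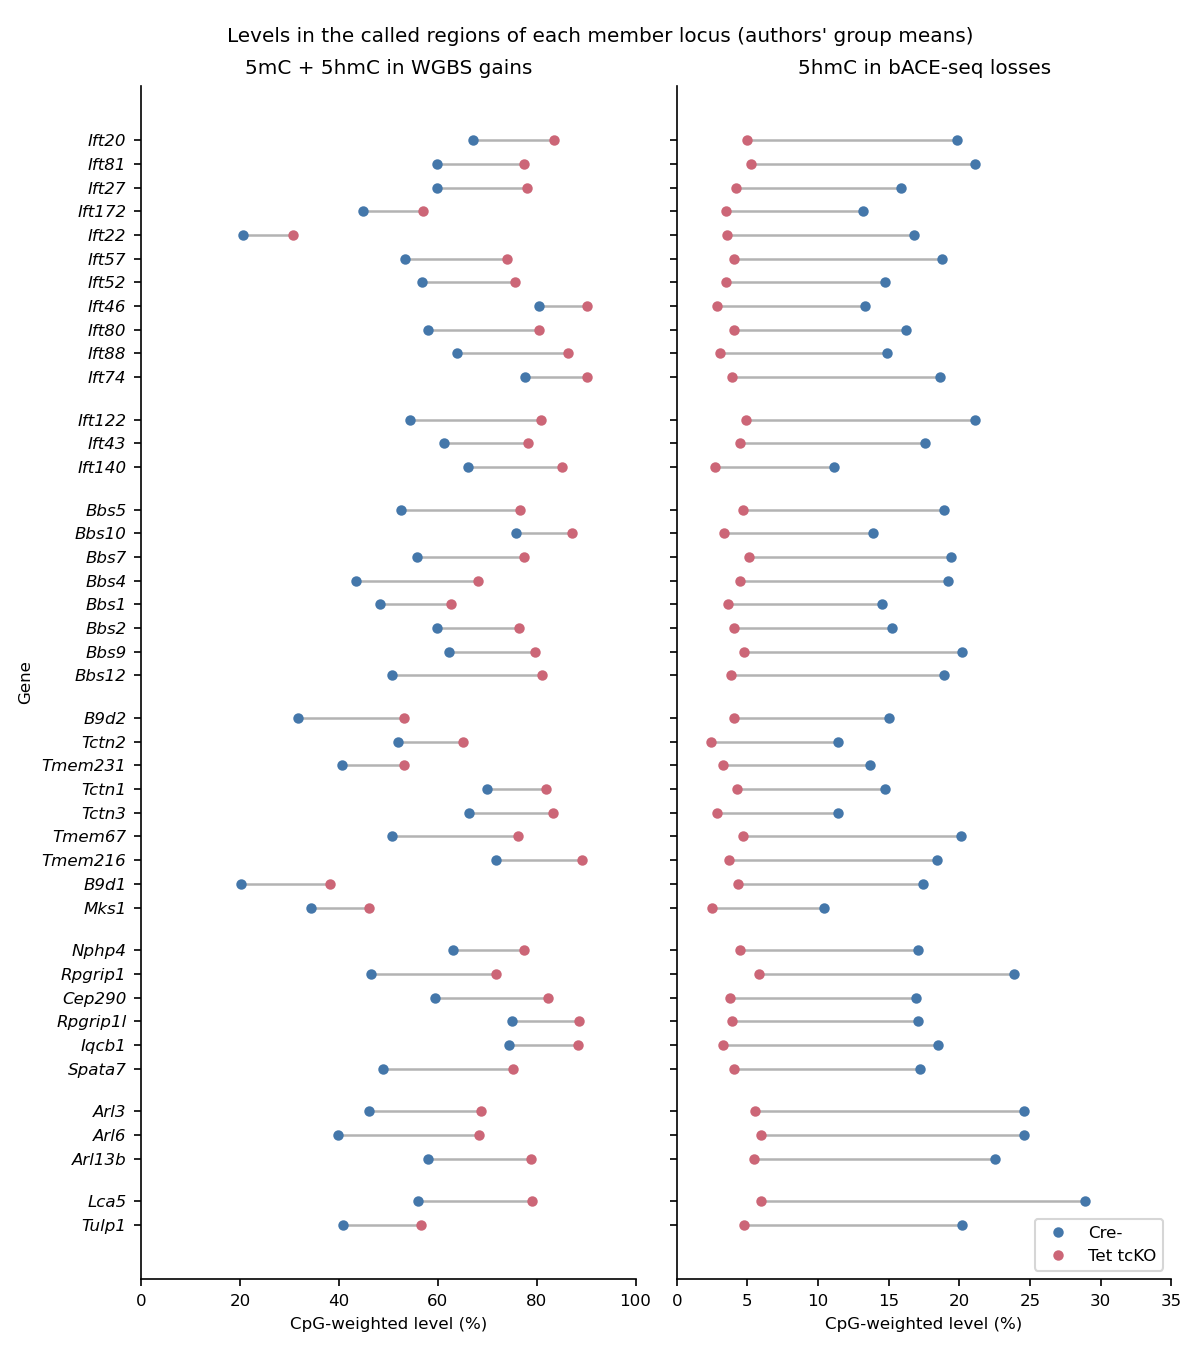
CpG-weighted level (percent) in WGBS gains (left) and in 5hmC losses (right) of each locus, 1 line per gene, with the authors' mean of Cre- in blue and of Tet tcKO in red. The WGBS difference was 9.57 percentage points at Ift46 and 30.4 at Bbs12, the lowest and the highest, and the Tet tcKO 5hmC level stayed between 2.45% and 5.97% at all 42 loci.

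Lca5 and Tulp1 take part in transport to the outer segment, and they had the largest shares of the group in gains. Lca5, lebercilin, sits on chr9:83390293-83441127 (minus strand) and had 18 gains over 29.1% of its locus, from 56.1% to 79.1%. The widest was a 2599 bp stretch of intron, chr9:83427778-83430376, with 29 CpGs and levels from 31.7% to 73.5%. Nearer the start, gains of 287 bp and 871 bp on either side went from 7.88% to 18.1% and from 20.2% to 40.4%. The level in gains was thus low around the start (16.9% to 34.4%) and higher in the gene body (60.0% to 83.9%). Its 5hmC losses covered 68.2% of the locus and fell from 28.9% to 5.97%, the highest control 5hmC of the 42.

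Tulp1, a tubby family protein needed to move outer segment proteins, sits on chr17:28351515-28365222 (minus strand) and had 11 gains over 25.4% of its locus, from 40.8% to 56.7%. A gain of 1470 bp and 30 CpGs, chr17:28364817-28366286, lay over the start site and the first exons and went from 22.6% to 44.9%. Other gains began low and stayed low, as at the 3′ end, where 462 bp across a coding exon went from 23.2% to 32.7%. In 5hmC losses, which covered 77.1% of the locus, the level fell from 20.2% to 4.75%. The longest of these, 9476 bp with 179 CpGs, took up most of the gene body and fell from 23.5% to 5.37%. Around the start 5hmC was low in both genotypes, at 7.93% and 1.72%.

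**Figure D3:**
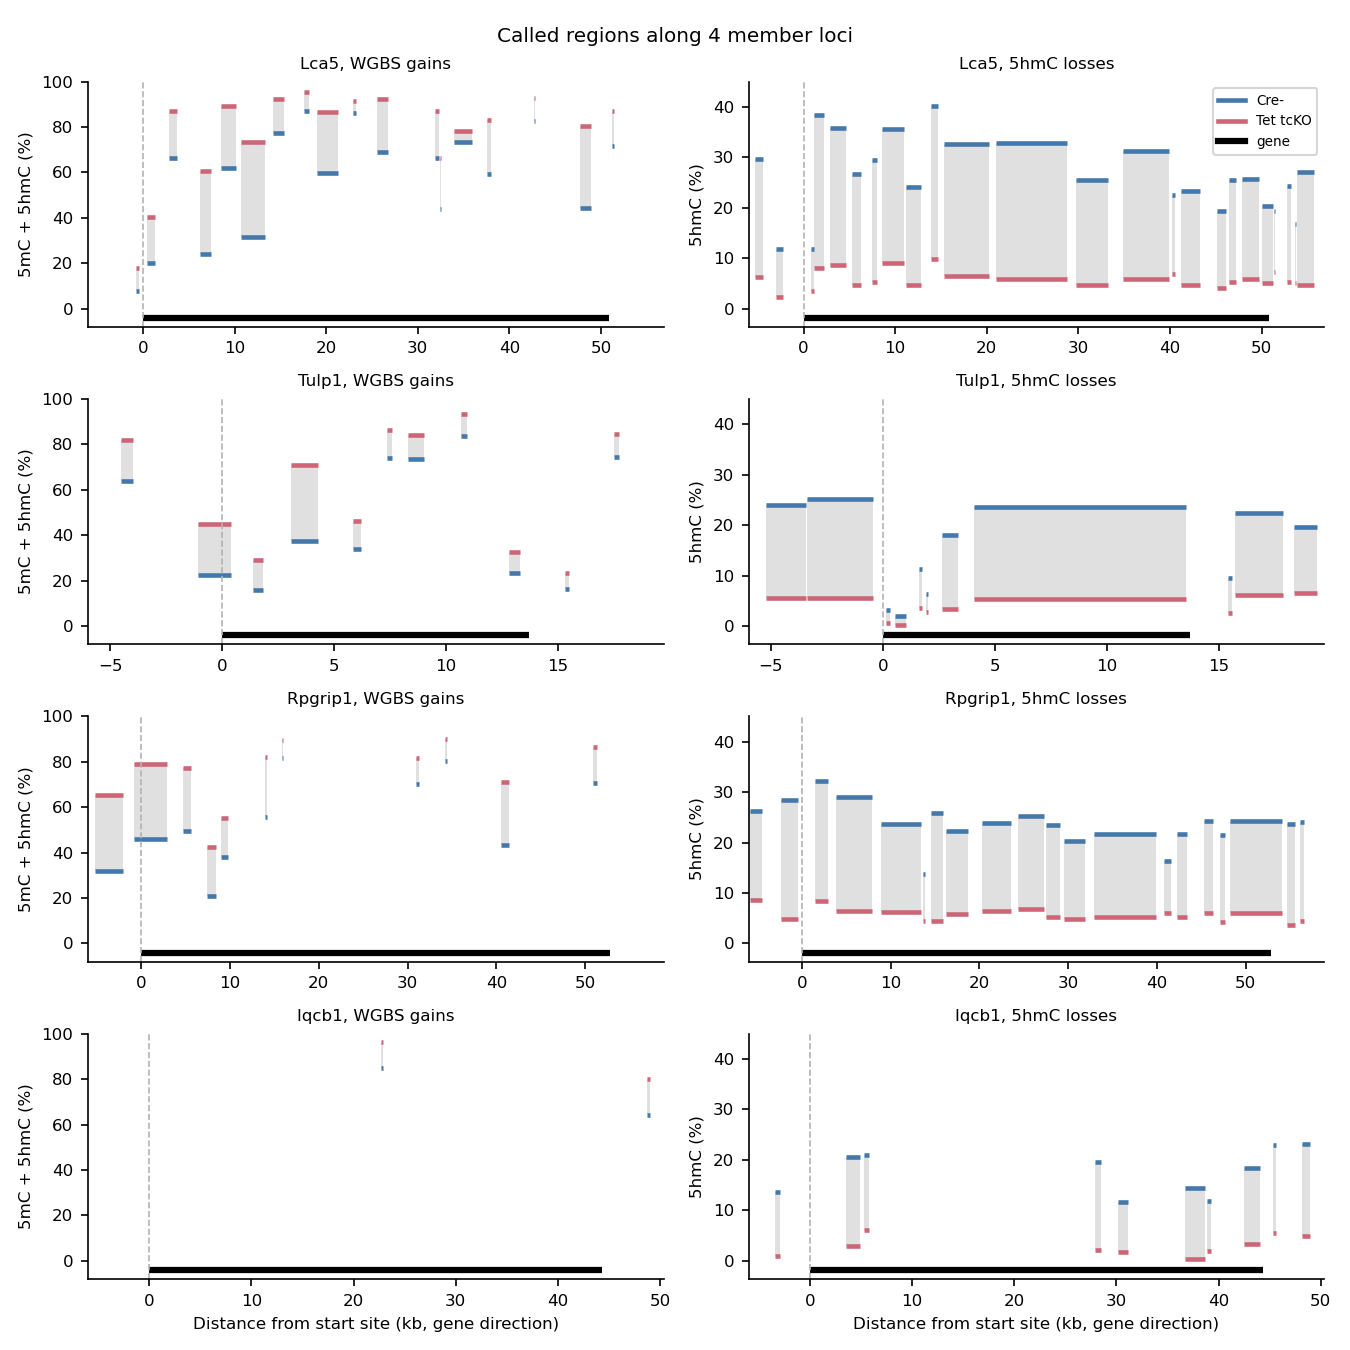
Called regions at Lca5, Tulp1, Rpgrip1 and Iqcb1 by distance from the start site (kb), with the level (percent) of Cre- in blue, of Tet tcKO in red, and the gene as a black bar. In WGBS (left) Lca5 has 18 gains, Tulp1 11, Rpgrip1 12 and Iqcb1 2. In bACE-seq (right, axis to 45%) the losses are 24, 11, 20 and 10, and by the definition of a loss the red line lies under the blue line.

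The NPHP and RPGRIP group holds gate and connecting cilium proteins and split into members with high and with low shares. Nphp4 on chr4:152476706-152563183 had 34 gains over 20.8% of its locus, from 63.0% to 77.4%, and Rpgrip1 had 12 over 18.8%, from 46.6% to 71.8%. Cep290 had 3.33% in 7 gains, Rpgrip1l 3.00% in 8, Iqcb1 0.859% in 2 and Spata7 0.848% in 1. Their 5hmC shares were 74.4% at Nphp4, 70.6% at Rpgrip1, 38.1% at Spata7, 30.5% at Rpgrip1l, 28.2% at Cep290 and 16.6% at Iqcb1. Spata7 thus had the smallest share in gains of all 42 with a 5hmC share at the median of the group.

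Rpgrip1, the scaffold that anchors RPGR at the connecting cilium, lies on chr14:52110704-52163546 (plus strand). Its window around the start was the most covered of the 42, with 70.7% inside gains. A gain of 3725 bp and 48 CpGs, chr14:52109877-52113601, ran from position -827 to 2897 relative to the start, over the first exons, and went from 45.8% to 79.0%. A second of 3190 bp, chr14:52105472-52108661, lay upstream and went from 31.7% to 65.5%. The smaller gains in introns further along ran from 21.0% to 42.6% at the lowest and from 81.7% to 89.5% at the highest control level. Its 5hmC fell from 23.9% to 5.84% over 70.6% of the locus.

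Cep290, a large gate protein whose defects are a frequent cause of Leber congenital amaurosis, lies on chr10:100487558-100574840 (plus strand). It held the gain with the largest difference among the 347, 748 bp on chr10:100500662-100501409 across a coding exon and intron, from 19.1% to 75.4%. A neighbour in the next intron of 431 bp went from 46.6% to 84.8%, and a gain of 439 bp upstream, shared with Tmtc3, went from 42.2% to 61.5%. Spata7, which organises the distal connecting cilium, had a single gain of 438 bp on chr12:98668417-98668854 at its last exons, from 49.0% to 75.3%. Iqcb1, known as NPHP5, had gains of 228 bp and 239 bp, 4 CpGs each, from 84.8% to 96.4% and from 64.2% to 80.3%, the first also inside Eaf2 and the second also inside Golgb1.

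ARL GTPases are small switches that release or deliver lipidated and BBSome cargo, and all 3 members had gains within 2 kb of the start, as did 47.4% of protein-coding genes. Arl3, which releases lipidated proteins in the outer segment, had 19.6% of its locus in 14 gains, from 46.1% to 68.7%. Arl6, which recruits the BBSome to membranes, had 15.4% in 6, from 39.8% to 68.3%. Arl13b, an activator of Arl3, had 8.20% in 12, from 58.1% to 78.9%. A 2148 bp intron gain of Arl3 on chr19:46562445-46564592 went from 30.2% to 72.4%, and a 1609 bp gain of Arl6 on chr16:59631410-59633018 from 33.3% to 79.0%. Arl6 was 1 of 3 members with no 5hmC loss within 2 kb of the start, although its 5hmC fell from 24.6% to 5.93% over 36.7% of the locus.

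The IFT-A genes, whose products carry retrograde traffic, differed among themselves. Ift122 had 16.5% of its locus in 18 gains, from 54.3% to 80.9%, and Ift43 13.5% in 26, from 61.2% to 78.2%. Ift140 had 2.17% in 3, from 66.2% to 85.1%. None of the 3 had a gain within 2 kb of the start, where 47.4% of protein-coding genes had one. The widest gain that touched a member, 11172 bp on chr6:115927489-115938660 with 176 CpGs (34.2% to 75.8%), lay after the 3′ end of Ift122 and reached beyond the 5 kb flank into a neighbouring gene. Without the flanks, 12.6% of Ift122 lay in gains.

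Ift140 also carried 2 of the 3 WGBS losses. They lay near its 3′ end, 132 bp on chr17:25090603-25090734 across a coding exon and 69 bp on chr17:25091461-25091529 in an intron, and went from 94.4% to 87.6% and from 94.5% to 87.8%. The third, 77 bp after the 3′ end of Tctn2 and inside Atp6v0a2, went from 5.30% to 3.01%. These losses covered at most 0.215% of a member locus.

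The IFT-B genes, whose products carry anterograde traffic, had lower shares, with a median of 3.77%. They were 14.8% at Ift20, 9.80% at Ift81, 8.89% at Ift27, 5.15% at Ift172, 3.96% at Ift22, 3.77% at Ift57, 3.27% at Ift52, 2.37% at Ift46, 2.33% at Ift80, 2.15% at Ift88 and 1.04% at Ift74. Ift20, which also works at the Golgi, owed much of its value to flanks, since 4.28% of the gene itself lay in gains. Its downstream gains of 1347 bp and 694 bp overlapped Tmem97. Of the Ift22 gene itself, 0% lay in gains, and its 2 gains, after the 3′ end, overlapped 4933404O12Rik. Ift57 had gains on either side of its start and none over it. Of its window, 36.6% lay in gains of 544 bp upstream (16.3% to 34.8%) and 1125 bp in the first intron (53.2% to 79.0%). Small regions of Ift80, each with 5 CpGs, had some of the largest differences, 31.1% to 79.3% over 100 bp and 41.4% to 83.7% over 110 bp. Ift74 had the lowest 5hmC share of the 42, 14.0%, with 5hmC from 18.6% to 3.92%.

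The BBSome and chaperonin-like BBS genes had a median share in gains of 6.08%. Bbs5 led with 14.5% in 6 gains, followed by Bbs10 at 6.73%, Bbs7 at 6.53%, Bbs4 at 6.34%, Bbs1 at 5.81%, Bbs2 at 4.91%, Bbs9 at 4.41% and Bbs12 at 3.23%. A 1987 bp gain of Bbs5, chr2:69649002-69650988, went from 44.7% to 80.0%. At Bbs4 an intron gain of 894 bp began 518 bp after the start with a control level of 8.83% and stood at 33.9% in Tet tcKO. Bbs12 had the largest difference of any locus, from 50.7% to 81.1%, on 2 gains, and its 217 bp intron region went from 19.1% to 67.9%. Bbs9 had 48 gains from 62.2% to 79.7% and 158 5hmC losses from 20.2% to 4.75%.

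The MKS module, membrane and B9-domain proteins of the gate, had a median share of 3.54%. The values were 10.2% at B9d2, 6.94% at Tctn2, 4.89% at Tmem231, 4.15% at Tctn1, 3.54% at Tctn3, 3.26% at Tmem67, 3.24% at Tmem216, 2.16% at B9d1 and 1.62% at Mks1. B9d2 owed part of this to its upstream flank, where an 864 bp gain went from 25.3% to 69.1%. Of the Tctn3 gene itself, 0.633% lay in gains. B9d1 had 1 gain, just after its start, from 20.2% to 38.2%, which no 5hmC loss overlapped. In 5hmC losses the Cre- level ran from 10.4% at Mks1 to 20.1% at Tmem67.

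Members with a large share in 5hmC losses also had a large share in gains, with a Spearman rho of 0.748 across the 42 loci and 0.801 across all protein-coding genes. The values come from separate libraries of the same DNA and share the CpG density of each locus, and genes are not independent replicates. Gene length and the share in gains were weakly related among members (rho -0.109, all protein-coding genes 0.222). Tulp1, Nphp4, Rpgrip1 and Lca5 were among the highest on both measures, Ift74 and Iqcb1 among the lowest, and Spata7 was low in gains and near the median in 5hmC losses, as the scatter of both shares shows.

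**Figure D4:**
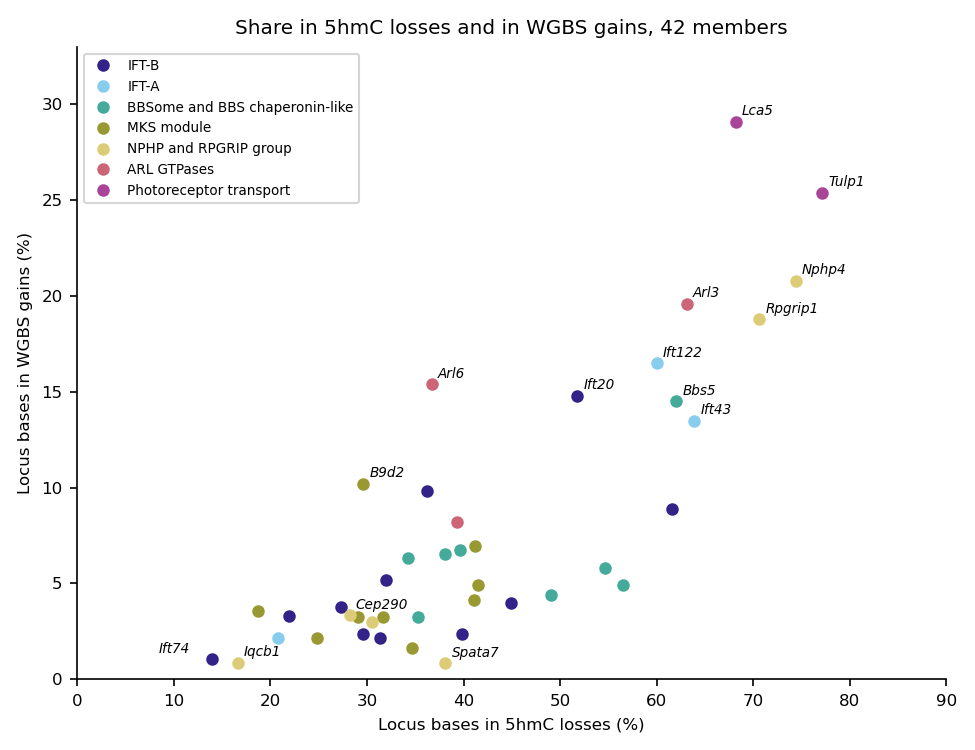
Share of locus bases in 5hmC losses (horizontal, percent) against the share in WGBS gains (vertical, percent) for the 42 genes, 1 point per gene, coloured by role. The 11 genes with at least 10% of the locus in gains are named, together with Cep290, Iqcb1, Spata7 and Ift74.

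Within 2 kb of the start, 23 of the 42 members (54.8%) held a gain, against 47.4% of protein-coding genes, and 39 (92.9%) held a 5hmC loss, against 78.2%. The 3 without a 5hmC loss there were Ift140, Iqcb1 and Arl6. By role the start gains were at 5 of 11 IFT-B, 0 of 3 IFT-A, 6 of 8 BBS, 4 of 9 MKS, 3 of 6 NPHP and RPGRIP, all 3 ARL and both photoreceptor transport genes. In 13 of the 23 members gains lay after the start only, in 2 (Cep290 and Tmem67) before it only, in 6 on both sides, and in Rpgrip1 and Tulp1 over it. Of the 9 members with a divergent start of another gene within 300 bp, 3 (Arl3, Cep290 and Ift20) held a gain in the window.

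Around the start, coverage in gains was uneven, from 1.71% at positions -2000 to -1501 bp to 23.4% at 1000 to 1499 bp. It was 6.43% in the first 500 bp and 19.6% from 500 to 999 bp, and protein-coding genes had 4.79%, 11.3%, 4.54% and 7.59% in these 4 steps. In 5hmC losses it was 5.05% in the first 500 bp, lower than at protein-coding genes, and 61.6% from 2500 to 2999 bp, over their 34.5%. No member had a 5hmC loss over its start site, and the share of protein-coding genes with one was not worked out.

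**Figure D5:**
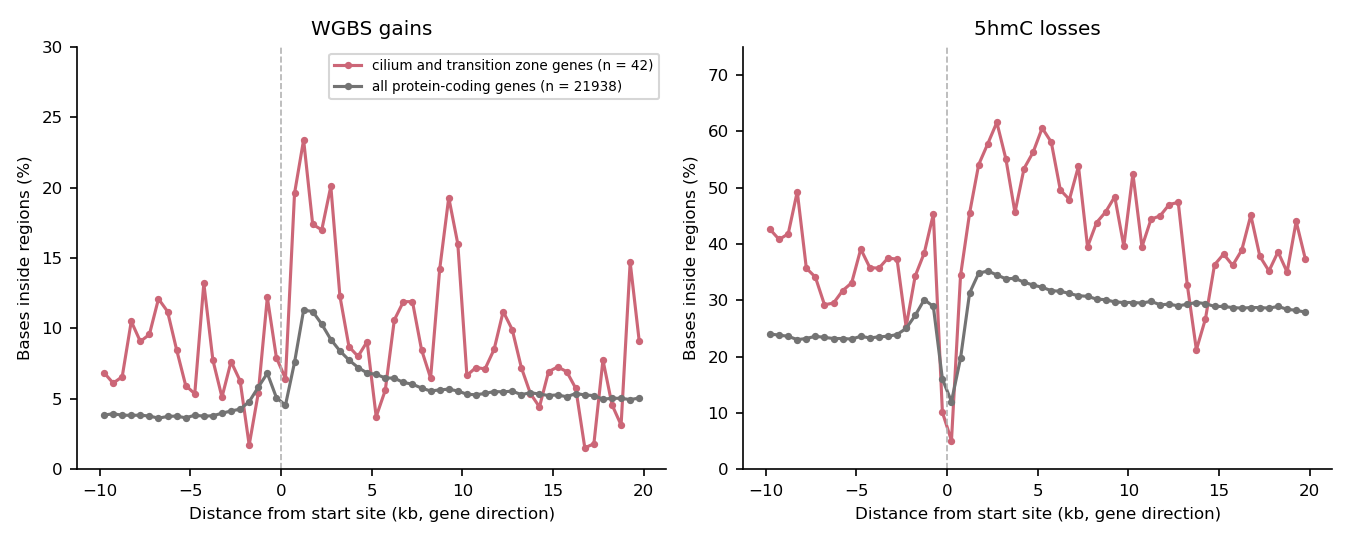
Share of bases (percent) inside WGBS gains (left) and 5hmC losses (right) in 500 bp steps around the start site, in kb along the direction of the gene, for the 42 genes (red) and all 21938 protein-coding genes (grey). For the 42 genes the left curve was at 6.43% just after the start site and at 23.4% from 1000 to 1499 bp, and the right curve was at 5.05% just after the start site and at 61.6% from 2500 to 2999 bp. With 42 loci, 1 wide region moves a point of the red curves.

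Most regions lay away from starts. Of the 347 gains, 225 (64.8%) lay in introns, 59 (17.0%) touched an exon, 28 were upstream and 33 downstream flank, and 2 covered a start. The median difference was 16.3 points in introns and 14.6 at exons. Of the 1061 5hmC losses, 600 (56.6%) lay in introns and 276 (26.0%) touched an exon. Of the gains, 53 (15.3%) also lay in another gene, so their bases cannot be assigned to the member alone.

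Other gene lists gave a scale for these values. The 44 other cilium genes, among them kinesin, further BBS and ciliopathy genes, all held a gain, with a median share of 3.62% and 34.6% in 5hmC losses, and Unc119 at 57.3%, Cep250 at 22.5% and Ttc8 at 21.1% had the largest shares in gains. The 12 outer segment genes, such as the disc rim protein gene Prph2 at 76.5%, all held a gain and had medians of 20.4% and 61.9%. The 35 complex I genes of the mitochondrial respiratory chain had medians of 5.43% and 39.9%, and 32 held a gain. Around the start a gain was held by 68.2% of other cilium, 91.7% of outer segment and 57.1% of complex I genes, beside 54.8% of members. The median shares of the members thus lay between the protein-coding genes and the outer segment genes and under those of complex I, and no test sets the lists apart.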

How the data were processed

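Genomic DNA of whole P21 retina was profiled in 3 Cre- and 3 Tet tcKO libraries per assay, grouped by their labels. Adapter trimming, alignment to mm10 with Bismark and duplicate removal were done by the authors, who also counted modified CpGs with MethylDackel and called regions with DSS with smoothing on the 3 libraries of each genotype together; the submitters' processing notes give Trim Galore 0.4.4, Bismark 0.18.2, SAMtools 1.15.1 and MethylDackel 0.6.1. The deposited region means are fractions of modified reads, 1 per genotype, multiplied here by 100. Group 1 was read as Cre- and group 2 as Tet tcKO from the order in each list's name. The deposited area statistic, a score, served only as a filter in an alternative, and the authors' column of differences between genotypes was not used. Reads per CpG are not in the lists, so the depth at each region is unknown. The authors show total reads and average coverage of each sample in a supplementary figure.

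Each member's locus was its GENCODE M21 gene with 5 kb on each side, the promoter window 2 kb on each side of the gene's start, and the gene body the rest of the gene. Levels were weighted by the CpGs of each region inside the window. All 193836 WGBS and 592906 bACE-seq regions began and ended on a CpG of GRCm38, and the smallest had 4 CpGs. Coverage and weighting were tested on simulated regions. Python 3.11.15, numpy 2.4.6, pandas 2.3.3 and scipy 1.17.1 were used. The members and lists were chosen with earlier results of these data known. All members are named, and those described in depth were set by rule: the 3 with the largest shares in gains, in 5hmC losses and around the start, Rpgrip1, Tulp1, Lca5, Spata7, Iqcb1 and Cep290, and members with a WGBS loss. Single regions of other members were picked after their values were seen. Alternatives changed the flank, promoter width, smallest CpG number, smallest difference and share measure.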

Additional observations from a re-analysis of the deposited data

How the results depend on the processing

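The results are counts, shares and levels whose direction the choice of regions fixes, so only their size could move, over 121 values of 20 results. The 57 values of group results stayed within 1.5 times in 48 cases and moved further in 9. With regions of at least 10 CpGs, 32 members held a gain, the median share of a member locus in gains was 2.52% and 14 members had a gain around the start. With regions that differ by at least 0.2 as a fraction, 32 members held a gain, the median share in gains was 1.65% and in 5hmC losses 2.47%, 26 members had a 5hmC loss, 14 had one around the start, and 12 had a gain around the start. Counted over CpGs instead of bases, the median share in gains was 8.98%. With 5 kb on each side of the start, 35 members had a gain there. Shares of protein-coding genes were not worked out under these settings, so the counts of members have no background. Among single genes, 15 of 64 values moved by over 1.5 times. Among the named genes, Iqcb1 and Ift57 were 2 of the members with no gain of at least 10 CpGs, and Nphp4 fell to 3.28% and Tulp1 to 11.3% with a difference of at least 0.2. Leaving out a library could not be tried, since the lists hold 1 mean per genotype. No paired analysis was possible because no result comes from a test and the columns carry no replicate number. The lists give neither depth nor spread, so no difference between genotypes at a single region has an error here.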
